A study of Mus musculus with 16 samples.

Results

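Open chromatin was examined at 10 genes that mark Kupffer cells, the resident macrophages of the liver, namely Clec4f, Vsig4, Cd5l, Marco, Csf1r, Spi1, Timd4, Ptprc, Cd68 and Id3. DNase hypersensitive sites (DHS) are stretches of DNA that DNase I cuts readily because they are not packed in nucleosomes, and the DHS assigned to a gene here were those that overlapped the gene or the 20 kb on each side of it. Overlapping peaks (by 1 bp or more) of the 4 deposited lists formed 51482 joined regions, and 20 of these fell in the windows of the 10 members, which were 10 of 22367 protein-coding genes. No region was shared by the windows of more than 1 member.

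The lists came from whole livers of males and females of the strains C57BL/6J (below, B6) and CAST/EiJ (below, CAST), all 8 weeks old. There were 16 DNase-seq libraries, 4 from each of Male B6, Female B6, Male CAST and Female CAST, and the purified liver nuclei of each library were digested with 32 units of DNase I. All animals were untreated as far as the labels go, and no cell type was sorted, so nuclei of Kupffer cells were present only as part of the whole liver. Each group had 1 merged peak list, so no spread between animals could be computed, no difference was tested, and all intervals cover counting error only. In such bulk tissue, fewer cells of a type and less open chromatin per cell cannot be told apart.

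Kupffer cells line the liver sinusoids, where they take up microbes, aged red cells and debris from portal blood. They depend on signalling through the CSF1 receptor and on the transcription factor PU.1, which all macrophages share, whereas TGF-beta family, Notch and liver X receptor signals from the sinusoidal niche give them their liver-specific genes. In liver tissue they are far outnumbered by hepatocytes, whose nuclei are also larger and often polyploid.

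The lists differed in length and depth. Male B6 and Male CAST held 38751 and 39562 peaks, Female B6 and Female CAST 26271 and 24888. The reads expected at a position by chance (the genome-wide background of the peak caller) numbered 15.4, 13.9, 14.3 and 7.94 for Male B6, Female B6, Male CAST and Female CAST. A peak on that background needed at least 30, 28, 28 and 19 reads at its summit in the same order, which is a fold enrichment (reads at the summit over the local background) of 1.90, 1.94, 1.90 and 2.24. A gene without a peak therefore had no site above these limits on such a background, and weaker sites were not detectable at this depth.

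Few Kupffer cell markers had a detected DHS at an own start site. Counts of members with any region in the window were nearer to the share of all genes. At least 1 region was found for 6 of 10 members, against 74.9% of all protein-coding genes with a DHS within 20 kb in any list, and 4 of 10 had a region that was present in all 4 lists, against 60.4%. Only Id3 and Spi1 had a DHS within 500 bp of an own annotated start site in any list, against 52.8% of all genes, and only Id3 had such a DHS in all 4 lists, against 41.7%. Vsig4, Cd5l, Marco and Timd4 had no region in any list. Of the 20 regions, Male B6 held 14, Female B6 10, Male CAST 15 and Female CAST 9, the same order as the lengths of the lists.

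All 4 lists held 8 of 20 regions, against 35.6% of all regions, 1 was in 3 lists, 2 were in 2 lists, and 9 were in 1 list, against 35.2%. The 9 single-list regions were weak, with fold enrichments of 2.02 to 2.87 (median 2.43), 31 to 64 reads at the summit, and ranks between the 1.39th and the 34.6th percentile of their own list. All 9 lay below the median −log10 q-value of their list. Male B6 and Male CAST held 4 each, Female B6 held 1 and Female CAST none, and over the whole series the same lists held 40.5%, 43.3%, 8.91% and 7.24% of the single-list regions. Within 500 bp of the start site of another gene lay 5 of the 20 regions, and 4 of those 5 were among the 8 present in all lists. That leaves 4 regions in all 4 lists for which a member had the nearest start site, 3 of them at Id3 and 1 at Csf1r. At a stricter threshold (−log10 q of at least 15.7) 1 of these 4 was still in all 4 lists, Id3 -3164, while Csf1r +4880 was no longer in Female B6.

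**Figure D1:**
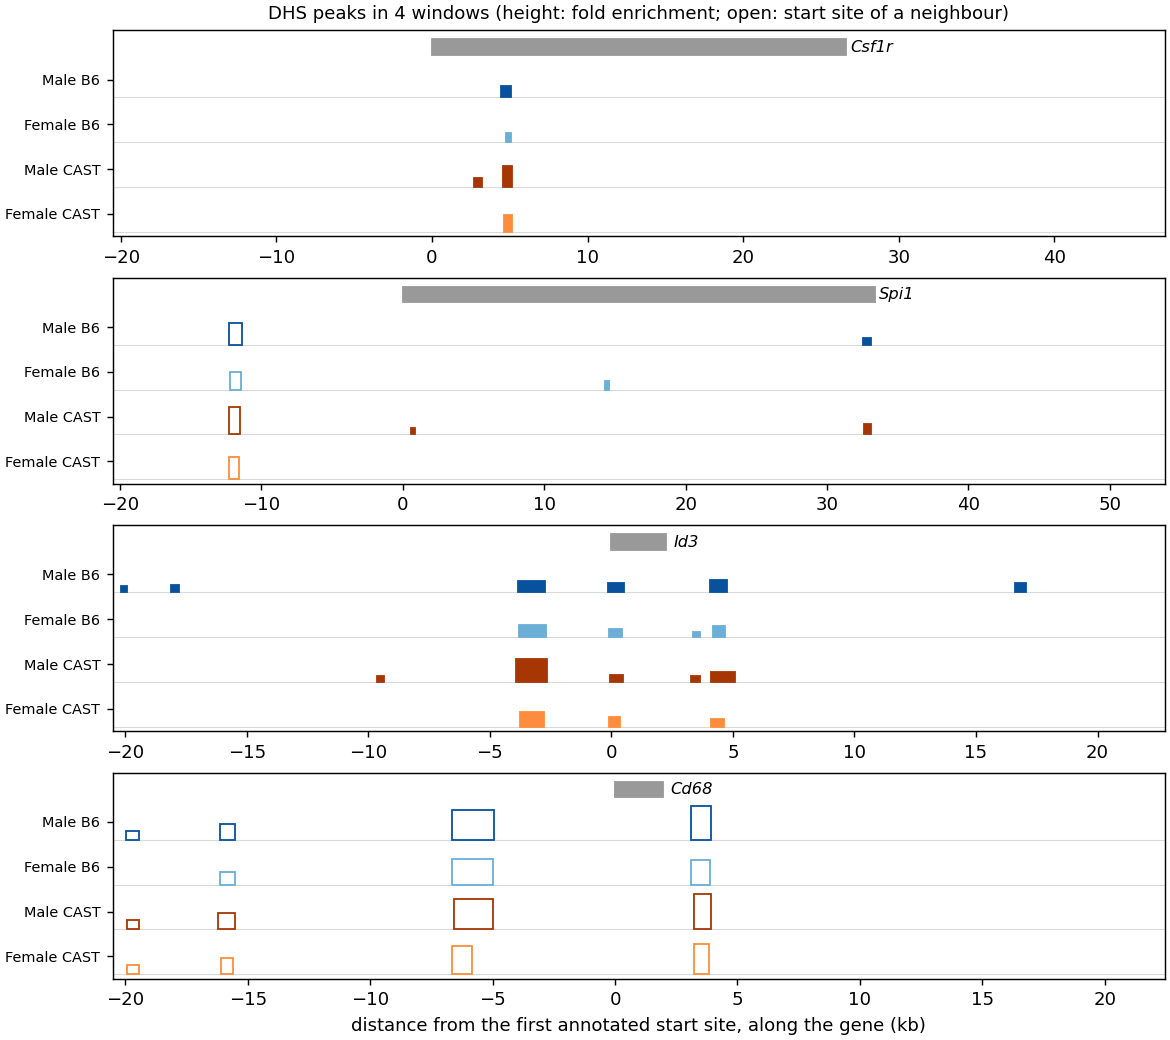
DHS peaks of the 4 lists within the windows of Csf1r, Spi1, Id3 and Cd68, plotted as distance from the first annotated start site along the gene (kb, x axis) for each list (y axis). Bars span the strongest peak of each region and their height is proportional to its fold enrichment, open bars mark start sites of other genes and grey boxes the gene bodies; Id3 had 8 regions around it and Cd68 had regions at the start sites of neighbours only.

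Regions are named below by the gene and by the distance in bp from its first annotated start site to the summit of the strongest peak, with negative values upstream. Coordinates are on mm9.

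Among the lineage transcription factors, Spi1 encodes PU.1, which macrophages need to form and to keep their enhancers open. The annotation lists the gene as Sfpi1. Its window held 4 regions, and the only one in all 4 lists, Spi1 -11944 (chr2:90910259-90911199), covered the start site of Slc39a13, a zinc transporter gene. This neighbouring promoter had B6 fold enrichments of 6.88 (males) and 5.63 (females) and CAST fold enrichments of 8.67 (males) and 6.95 (females).

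At Spi1 itself the signal was weak and no region was found in all lists. Spi1 +826 (chr2:90923144-90923435), in an intron 579 bp from the nearest own start site, was present in Male CAST only, with 31 reads at its summit and a fold enrichment of 2.1, near the limit of 1.90 for a peak on the genome-wide background of that list. Spi1 +14385 (chr2:90936820-90937133), over an internal annotated start site in an exon of untranslated sequence, was present in Female B6 only, with 40 reads and a fold enrichment of 2.75. Spi1 +32843 (chr2:90955120-90955686), over a coding exon near the end of the gene, was the only member region found in both male lists and neither female list, a pattern shown by 9.38% of all regions. Its fold enrichment was 2.13 (38 reads) in Male B6 and 3.27 (52 reads) in Male CAST, a CAST to B6 ratio of 1.54 with a 95% counting interval from 0.998 to 2.42. The nearest start site to this region, 2615 bp away, was that of Mybpc3, a cardiac muscle gene, and not of Spi1.

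Id3 encodes an inhibitor that binds E proteins and keeps them off DNA. It is a target of BMP signalling, is needed for Kupffer cells to develop, and is also expressed by other cells, endothelial cells among them. Id3 had the most regions of the members, 8, of which 3 were in all 4 lists: Id3 -3164 (chr4:135695476-135696750), Id3 +135 (chr4:135699279-135699948) and Id3 +4522 (chr4:135703483-135704487). The first and the last were intergenic, and Id3 +135 covered the start of the gene, with its summit in an exon of untranslated sequence.

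The mm9 reference sequence from 100 bp before to 100 bp after the summit is printed for 3 intergenic Id3 regions, because Id3 -3164 and Id3 +4522 carried the strain differences described next and Id3 -19943 held the letters of a hepatocyte factor. The strand is plus, and capitals mark matches to any of 11 short motifs that were searched on both strands, namely AGGAAGT (PU.1), TTGCNNAA (C/EBP), TGANTCA (AP-1), GAAANNGAA (interferon regulatory factors, IRF), TGTGGTT (RUNX), CAAAGTCCA (HNF4A), TGTTTAC (FOXA), CACGTG (E-box), AGGNGGC (CTCF), GTGGGAA (RBPJ) and GGCGCC (BMP response).

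Id3 -3164, chr4:135696148-135696348: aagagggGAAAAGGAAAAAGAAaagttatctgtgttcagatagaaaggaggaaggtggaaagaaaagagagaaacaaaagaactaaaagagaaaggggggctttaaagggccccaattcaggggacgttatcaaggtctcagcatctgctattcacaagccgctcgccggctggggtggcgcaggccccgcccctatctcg

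Id3 +4522, chr4:135703834-135704034: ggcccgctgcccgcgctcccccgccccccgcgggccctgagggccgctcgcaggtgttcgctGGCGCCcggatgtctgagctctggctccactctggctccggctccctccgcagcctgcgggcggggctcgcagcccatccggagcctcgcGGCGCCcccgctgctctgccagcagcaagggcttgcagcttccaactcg

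Id3 -19943, chr4:135679369-135679569: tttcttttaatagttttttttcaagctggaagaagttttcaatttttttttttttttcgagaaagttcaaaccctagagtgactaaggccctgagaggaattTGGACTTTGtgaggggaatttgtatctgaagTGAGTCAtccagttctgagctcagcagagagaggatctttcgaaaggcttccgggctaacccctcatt

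The window of Id3 -3164 held 2 overlapping IRF matches, starting 93 and 87 bp before the summit, and letters for IRF were in 5.66% of windows of the same length over all 51482 regions. The window of Id3 +4522, a region 2594 bp from the nearest start site, held 2 BMP response matches, letters also found at Csf1r +3078. These letters were in 5.20% of all windows and in 1.59% of those over 2.5 kb from any start site. The window of Id3 +4522 was also the most GC-rich of the members' windows, at 76.6%. That was above 98.5% of all windows, whose median was 49.3%, and above 99.9% of those over 2.5 kb from any start site. The window of Id3 -3164 was 49.8% GC. Id3 -19943, a single-list region, held an HNF4A match that began 2 bp after its summit and an AP-1 match, against 1.07% and 6.19% of all windows. A match is a description of the letters and not a measured binding site, and CAST alleles of these windows were not analysed here.

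Id3 -3164 was the most open Id3 region in CAST mice. Its summit had 202 (males) and 155 (females) reads in B6 and 448 and 96 reads in CAST, and its fold enrichment was 3.47, 3.85, 7.13 and 4.49 in that order. Male CAST thus stood above the other 3 lists, whose counting intervals overlapped. Among males the CAST to B6 ratio was 2.06 (95% counting interval 1.74 to 2.45), higher than at 98.3% of the 29099 regions with a peak in both male lists, where the median was 1.06. Among females it was 1.16 (0.890 to 1.51), close to the median of 1.19. Expressed as sex ratios of the same 4 values, Id3 -3164 had a male to female ratio of 0.900 (0.727 to 1.12) in B6, lower than at all but 3.33% of regions, and of 1.59 (1.28 to 2.02) in CAST, higher than at 91.9% of regions.

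The other shared Id3 regions had other values. Id3 +135, at the start site, had fold enrichments of 2.97, 2.55, 2.33 and 3.02 in Male B6, Female B6, Male CAST and Female CAST, on 228, 130, 183 and 75 reads. Its CAST to B6 ratio was 0.783 (0.641 to 0.955) in males and 1.18 (0.874 to 1.58) in females. Id3 +4522 was lower in CAST than in B6 in both sexes, with fold enrichments of 3.94, 3.48, 3.0 and 2.43 in the same order of lists, on 234, 136, 152 and 44 reads. Its ratio was 0.762 (0.616 to 0.937) in males and 0.697 (0.477 to 0.971) in females, and the latter was lower than at all but 1.21% of the 18601 regions in both female lists. Local background was high around Id3, at 57.6 reads for Id3 -3164 and 76.1 reads for Id3 +135 in Male B6 against a genome-wide value of 15.4, so that a start site with 228 reads had a fold enrichment under 3.

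The remaining 5 Id3 regions were weak. Id3 +3369 was present in Female B6 (1.77) and Male CAST (1.81) only. Id3 -19943, Id3 -17855 and Id3 +16726 were present in Male B6 only, with fold enrichments of 2.04, 2.37 and 2.87, and Id3 -9569 in Male CAST only, with 2.02. The nearest start site to Id3 +16726 was that of E2f2, a cell cycle transcription factor gene, and not that of Id3.

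**Figure D2:**
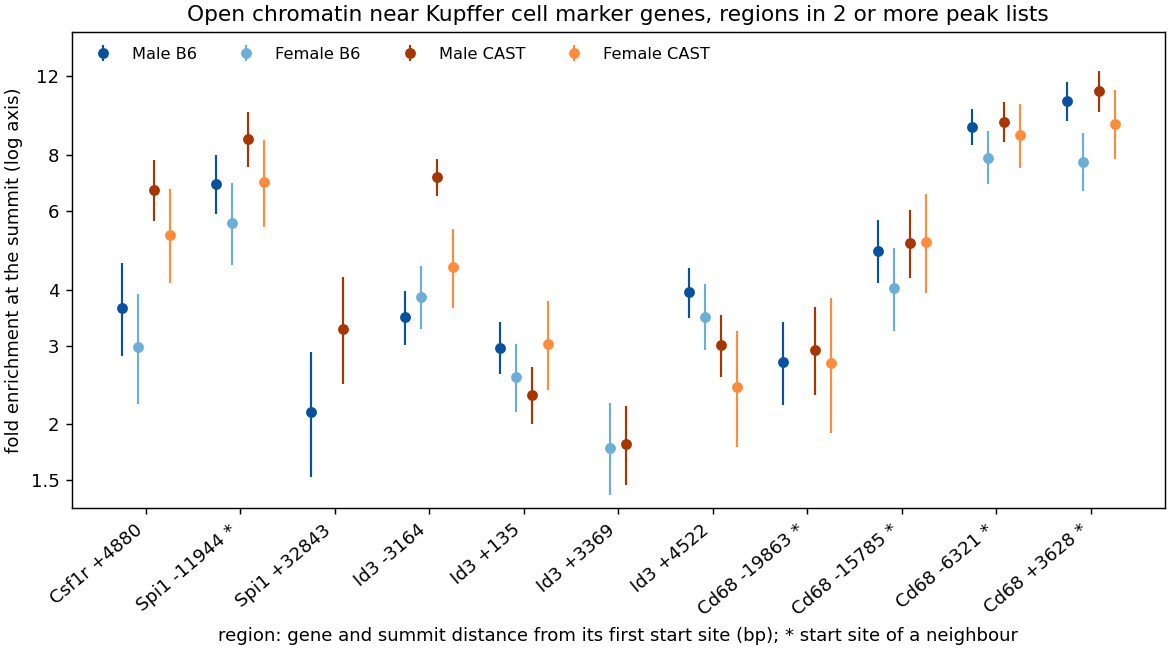
Fold enrichment at the summit (log y axis) of the member regions found in 2 or more lists (x axis), by list, with 95% counting intervals as bars and asterisks for start sites of neighbours. Csf1r +4880 was higher in both CAST lists than in both B6 lists, Id3 -3164 stood at 7.13 in Male CAST against 3.47 to 4.49 in the other lists, and Id3 +4522 was lowest in Female CAST at 2.43.

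Csf1r encodes the receptor for CSF1 and IL-34, the growth factors that macrophages need to survive. The gene lies on the plus strand at chr18:61265226-61291803, and its window held 2 regions, both within the gene and neither within 500 bp of an own start site. Csf1r +4880 (chr18:61269687-61270361) was the only region of a macrophage receptor or surface marker that was found in all 4 lists and was nearest to the member's own start site. The summit lay in a coding exon in both male lists and in the intron just after it in both female lists, and the summits spanned 93 bp, near the median of 91 bp over the 18309 regions in all 4 lists. The peak was 648 bp (males) and 278 bp (females) wide in B6, and 580 bp and 526 bp wide in CAST.

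Csf1r +4880 was more open in CAST than in B6 in both sexes. It had 70 (males) and 50 (females) reads in B6 and 160 and 69 reads in CAST, and fold enrichments of 3.63, 2.98, 6.66 and 5.30 in that order. Both CAST values lay above both B6 values, and the CAST to B6 ratio was 1.83 (1.39 to 2.48) in males and 1.78 (1.23 to 2.63) in females, higher than at 96.9% and 95% of regions present in both lists of the same sex. Male to female ratios were 1.22 (0.842 to 1.80) in B6 and 1.26 (0.95 to 1.71) in CAST, so the counting intervals included 1 in both strains. Csf1r +3078 (chr18:61267931-61268465), in an upstream intron, was present in Male CAST only, with 64 reads and a fold enrichment of 2.83. A Csf1r intron is known to hold an enhancer used by macrophages, and whether either region is that enhancer was not tested.

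The most specific surface markers had few regions or none. Clec4f, a C-type lectin that in mice is made almost solely by Kupffer cells, had a single region, Clec4f +19788 (chr6:83586259-83586553), beyond the end of the gene and in Male CAST only, with 36 reads and a fold enrichment of 2.43. The regions nearest to the genes without any were 117 kb from Vsig4, which encodes a complement receptor, 137 kb from Cd5l, which encodes a secreted scavenger protein, 81.6 kb from Marco, a scavenger receptor for microbes, and 103 kb from Timd4, a receptor for phosphatidylserine on dying cells. Those regions lay nearest to the start sites of Msn, Etv3, En1 and Timd2. Those at Etv3 and Timd2 were in all 4 lists, while that at Msn was in Male B6 only and that at En1 in Male CAST only.

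Ptprc encodes CD45, a phosphatase on the surface of all white blood cells, and tells nothing of which white cells are present. It had 1 region, Ptprc -16880 (chr1:140088468-140088932), upstream of the gene and in Male B6 only, with 39 reads and a fold enrichment of 2.45. Its window of 100 bp on each side of the summit is printed because it was the only member region with the PU.1 letters, in capitals, which occurred 2 times and were found in 6.04% of all windows.

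Ptprc -16880, chr1:140088662-140088862: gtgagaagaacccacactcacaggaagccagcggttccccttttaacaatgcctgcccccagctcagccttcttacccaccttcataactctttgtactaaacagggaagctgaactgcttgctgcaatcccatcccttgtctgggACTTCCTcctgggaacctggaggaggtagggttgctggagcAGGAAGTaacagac

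Over the 15 member regions away from the start sites of neighbours, PU.1 letters were thus in 1, C/EBP letters in 2 against 11.6% of all windows, and CTCF letters in 5 against 16.1%. IRF and HNF4A letters were in 1 each, against 5.66% and 1.07%, and AP-1 and BMP response letters in 2 each, against 6.19% and 5.20%. RUNX, FOXA, E-box and RBPJ letters were in none of the 15, against 3.68%, 4.49%, 4.49% and 4.04% of all windows. Csf1r +4880 held a C/EBP match, 94 bp before its summit, and Spi1 +14385 held another. In the RefSeq promoter table (GRCm38, 250 bp before to 50 bp after each start), 8 of 10 members were matched, all but Csf1r and Spi1, and PU.1 letters were in the promoter of Ptprc alone among them, against 10.7% of 27025 genes.

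Cd68 encodes a lysosomal membrane glycoprotein of macrophages and other phagocytes. Its window held 4 regions, and all 4 lay over start sites of other genes: Cd68 +3628 at Mpdu1, Cd68 -6321 at Eif4a1, Cd68 -15785 at Senp3 and 2010012P19Rik, and Cd68 -19863 at Tnfsf13. None reached Cd68, from which the nearest, at Mpdu1, was 1.15 kb away. The strongest peaks of the member windows were here, with fold enrichments of 10.5, 7.72, 11.1 and 9.38 at Mpdu1 and of 9.23, 7.88, 9.47 and 8.83 at Eif4a1 in Male B6, Female B6, Male CAST and Female CAST. Eif4a1 encodes a translation initiation helicase and Mpdu1 a protein of sugar donor use, and both are used by most cells. CAST to B6 ratios at these start sites lay between 1.03 and 1.07 in males (4 regions) and between 1.12 and 1.27 in females (3 regions). At the other neighbour, Slc39a13 near Spi1, they were 1.26 (1.02 to 1.55) in males and 1.24 (0.900 to 1.69) in females.

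**Figure D3:**
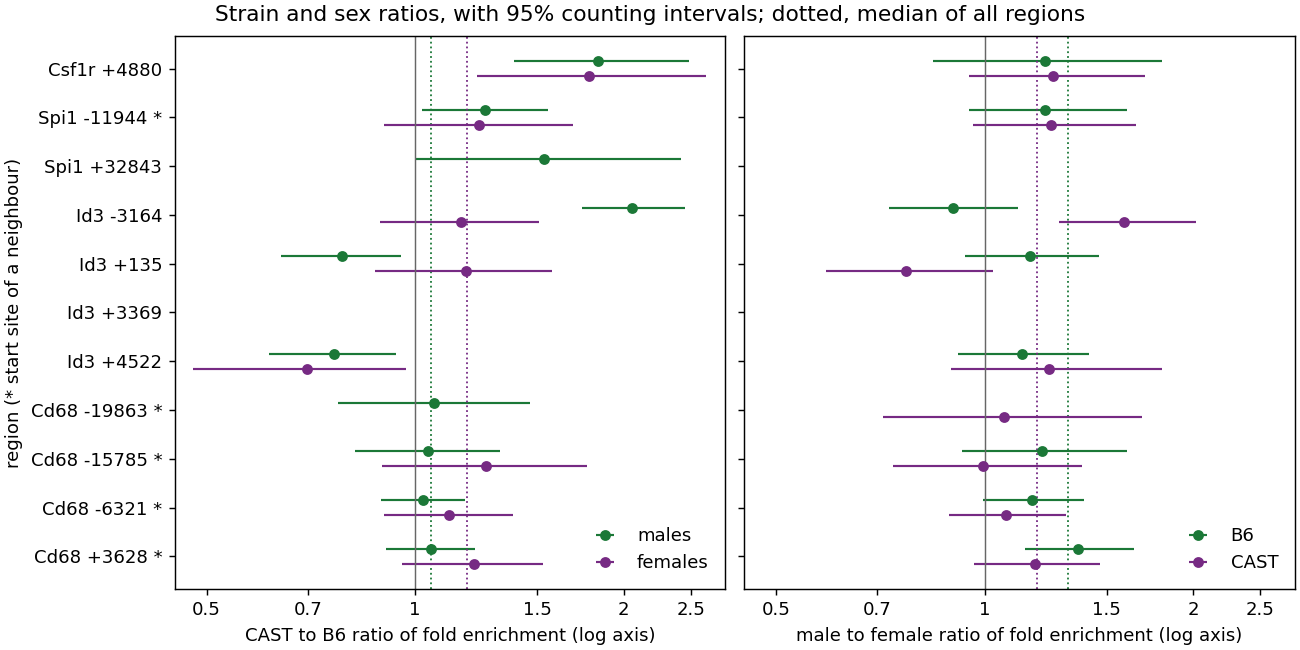
CAST to B6 ratios of fold enrichment in males and females (left) and male to female ratios in B6 and CAST (right), log x axes, for the member regions found in 2 or more lists (y axis; asterisks, start sites of neighbours), with 95% counting intervals as bars and medians of all regions as dotted lines. Csf1r +4880 lay at 1.83 and 1.78 on the left, and Id3 -3164 lay at 0.900 in B6 and 1.59 in CAST on the right.

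In each comparison 4 or 5 of the member regions were start sites of other genes. Medians of the male to female ratio were 1.19 over 8 member regions against 1.32 over 23644 regions in B6, and 1.18 over 9 against 1.19 over 22764 in CAST. Medians of the CAST to B6 ratio were 1.06 over 10 member regions against 1.06 in males, and 1.2 over 8 against 1.19 in females. The male CAST to B6 median was 1.54 away from the start sites of neighbours. That is the value of Spi1 +32843 (0.998 to 2.42), and the regions behind this median ran from 0.762 to 2.06. The same median was 1.31 over the 4 regions nearest to a member and 0.951 with summit reads over the genome-wide background. A male to female ratio of at least 1.5 was seen at 0 of 8 member regions in B6, against 24.3% of all regions, and at 1 of 9 in CAST, against 12.5%, the latter being Id3 -3164. A CAST to B6 ratio of at least 1.5 was seen in males at 3 of 10, against 8.81%, namely Csf1r +4880, Id3 -3164 and Spi1 +32843, and in females at 1 of 8, against 15%, namely Csf1r +4880.

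Id3 -3164, Id3 +135 and Cd68 -15785 had male to female ratios on opposite sides of 1 in the 2 strains, and at none of the 3 did both counting intervals exclude 1. At Cd68 -15785, the start site of Senp3 and 2010012P19Rik, the ratios were 1.21 (0.927 to 1.60) in B6 and 0.995 (0.737 to 1.38) in CAST. These opposed directions were not seen with summit reads over the genome-wide background, where the male to female ratios in B6 and CAST were 1.19 and 2.71 at Id3 -3164, 1.60 and 1.42 at Id3 +135, and 1.61 and 1.23 at Cd68 -15785, against medians of 1.67 and 1.45 over all regions. The male to female ratio in CAST divided by that in B6 was 1.77 (1.3 to 2.39) at Id3 -3164 and 0.661 (0.469 to 0.932) at Id3 +135, against a median of 0.895 over 18306 regions. The interval excluded that median at 1 of the 8 member regions in all 4 lists, Id3 -3164, against 7.28% of all regions. Because all 4 values came from merged lists, this describes the lists and was not tested over animals.

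The summits of some shared regions lay closer together in the 4 lists than the median span of 91 bp over all such regions, and those of others farther apart. They spanned 10 bp at Id3 -3164, 71 bp at Id3 +4522 and 169 bp at Id3 +135, where the Male CAST summit lay 298 bp after the first start site and the other 3 between 129 and 136 bp after it. The 90th percentile of this span over all regions in 4 lists was 326 bp. The Id3 -3164 peak was also the widest of those nearest to a member, at 1020 to 1275 bp.

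Other genes of the macrophage programme and markers of other cells were counted in the same way to place the members. Of 20 other Kupffer cell and macrophage identity genes, 8 had a DHS at an own start site in any list and 1 in all 4 lists. The shares over all protein-coding genes were 52.8% and 41.7%. The 1 gene was Slc40a1, the iron exporter, with fold enrichments of 3.70, 3.11, 3.43 and 2.89. Hmox1, which degrades haem, had 3.84, 3.32 and 4.73 and no peak in Female CAST, and Tlr4, the receptor for endotoxin, had 2.63, 3.01 and 3.34 and no peak in Female CAST. Mpeg1, a pore-forming protein of phagocytes, was present in Male B6 (2.32) and Male CAST (2.75). A region in the window was found for 16 of the 20 genes, against 74.9% of all protein-coding genes. The others, Adgre1, which encodes F4/80, Cd163, Lyz2 and Lgals3, had none. Of the complement C1q genes only C1qb had a start-site DHS, in Male B6 (2.2).

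Counts were higher among the transcription factors of macrophages. Of 17 macrophage transcription factors, 14 had a start-site DHS in any list and 12 in all 4, against 52.8% and 41.7% of all genes. Irf8, Rbpj and Smad4 were among the higher values. Irf8 had fold enrichments of 9.39, 6.93, 6.97 and 8.54, and Rbpj, the effector of Notch, had 8.48, 6.75, 9.06 and 8.20. Nr1h3, which encodes liver X receptor alpha, had up to 6.51, and Spic had none at its start. Of the relatives of Id3, Id2 had 4.60, 4.14, 3.47 and 3.76 at its start site and Id1 had none there. Tfec alone had no region in its window. Many of these factors also act in hepatocytes or other liver cells, and the cells that gave the signal cannot be told apart.

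Markers of the other cells set the range. A start-site DHS in any list was found for 9 of 10 hepatocyte markers, all but Serpina1a, and for 8 of 10 sinusoidal endothelial markers, against 2 of 10 Kupffer members. In all 4 lists the counts were 7, 2 and 1 in the same order. Serpina1a is a gene with near-identical copies, and whether this bore on its count was not tested. In any list such a DHS was found for 1 of 10 lymphocyte markers, Tcf7, and for 0 of 10 monocyte and neutrophil markers and 0 of 10 genes of other tissues. By list, the share of members with a start-site DHS was 20% for Female B6 and 10% for each of the other lists, against 70% to 90% of the hepatocyte markers. The label of the members as Kupffer cell genes could not be checked in these lists beyond this, as their most specific members, Clec4f, Vsig4 and Timd4, had 1 weak region between them.

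**Figure D4:**
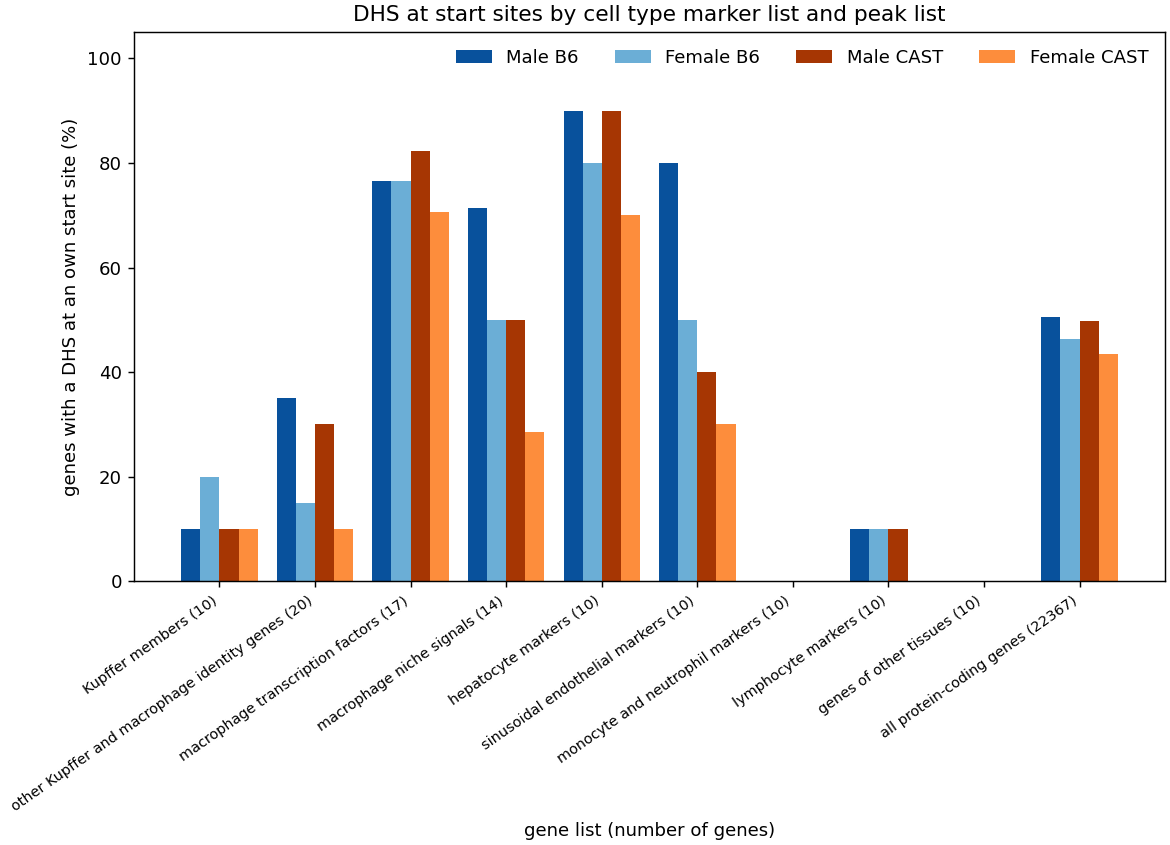
Percent of genes with a DHS within 500 bp of an own start site (y axis, from 0) for each marker list (x axis, number of genes in brackets) and peak list (colours). Kupffer members stood at 10% to 20%, hepatocyte markers at 70% to 90% and all protein-coding genes at 43.5% to 50.6%.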

How the data were processed

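DNase-seq was performed by the authors in 16 mouse liver libraries, and reads were mapped with Bowtie2, those of CAST mice to a custom CAST genome whose positions were converted to mm9, which can shift peak edges in CAST lists. Peaks were identified with MACS2, and 1 merged peak list per group was deposited. Each peak carries a deposited fold enrichment, which is a ratio of summit reads to local background with 1 added to each, deposited −log10 p-values and −log10 q-values (the latter recorded as a score), and the position of its summit. Fold enrichment is already relative to local background and is not corrected for differing signal-to-noise between lists. No columns of the authors' own comparisons were used.

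From these, summit reads were recovered for each peak by solving the Poisson p-value, and were whole numbers within 0.02 reads for 99.9% to 100.0% of peaks. Peaks were joined at 1 bp, and genes and exons were taken from GENCODE M1 on mm9, with Spi1, Adgre1 and Tfec found under older symbols (pandas 2.3.3, scipy 1.17.1, pysam 0.24.0, samtools 1.23.1). Ratios have exact 95% intervals for 2 Poisson counts, with the backgrounds taken as fixed, and ratios of 2 ratios have normal intervals on the log scale. Regions were given in full by a rule: those over a member's start, else the strongest nearest to it, those in 1 sex or strain only, and those with opposed sex ratios; from other marker lists the 4 genes with the highest start-site values or none, and a few others named after their values were seen (1 gene is not reported here). Members and lists were chosen with earlier results of these data known. The steps were tested on simulated data. Alternatives covered joining, thresholds, list size, depth, window, start-site distance and signal measure.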

Additional observations from a re-analysis of the deposited data

Results flagged for a closer look

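The region Id3 -3164 had a male to female ratio of fold enrichment in CAST that was 1.77 times that in B6 (95% counting interval 1.3 to 2.39), higher than at 99.4% of the 18306 regions in all 4 lists. It drew attention because the ratio was below 1 in B6 (0.900) and above 1 in CAST (1.59) and because the interval excluded the median of all regions, 0.895. With reads over the genome-wide background in place of fold enrichment, the value was 2.28 (1.69 to 3.09), against a median of 0.853, but the male to female ratio was then above 1 in both strains, at 1.19 in B6 and 2.71 in CAST, so the opposed direction did not hold with that measure. Its local background was 57.6, 39.5, 62.0 and 20.6 reads in Male B6, Female B6, Male CAST and Female CAST. The difference was not tested across animals, and a batch or single library behind a merged list was not tested.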

How the results depend on the processing

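The 20 member regions became 8 at a stricter threshold (−log10 q of at least 15.7, the pooled median), 11 with lists of equal size (24888 peaks), 11 within 5 kb, 39 within 50 kb and 13 counting only regions nearest to the member's start. The 8 regions in all 4 lists became 5 at the stricter threshold, 19 within 50 kb, 4 nearest to the member and 4 away from neighbours' start sites, the last choice made after the data were seen. The 2 members with a start-site DHS became 1 at the stricter threshold. The median male to female ratio in B6, 1.19, became 1.60 with summit reads over the genome-wide background. That in males of CAST to B6, 1.06, became 1.54 away from neighbours' start sites, 0.951 with summit reads over the genome-wide background and -0.975 percentile points as the difference in rank within the list, and that in females, 1.2, became -1.81 percentile points. In lists whose summit reads were thinned to the genome-wide background of Female CAST (1 random thinning), 17 regions were found and 8 were in all lists. At Csf1r +4880 the male and female CAST to B6 ratios were 2.43 and 2.29 with summit reads over the genome-wide background.

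No paired analysis was possible because each group had 1 merged list and no result came from a test. Leaving out replicates was impossible here too. Depth limits the lists unequally, with Female CAST at a background of 7.94 reads, and absence from it is the least informative.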

Other observations

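Signals of the macrophage niche and markers of the endothelial cells that line it were counted at start sites as well. Of 14 niche signal genes, 10 had a start-site DHS in any list and 4 in all lists (71.4%, 50%, 50% and 28.6% by list). The shares over all protein-coding genes were 52.8% in any list and 41.7% in all lists. Tgfbr1 was the highest (9.17, 6.90, 8.76 and 7.53 in Male B6, Female B6, Male CAST and Female CAST) and Cx3cl1 was without any region. Csf1, the ligand of the CSF1 receptor, had 4.30, 3.09, 4.27 and 5.03, and Il34, its other ligand, had none at its start site. Of the sinusoidal endothelial markers, the share with a start-site DHS was 80% (males) and 50% (females) in B6 and 40% and 30% in CAST, against 50.6%, 46.3%, 49.8% and 43.5% of all protein-coding genes in the same order, and the part of depth or strain in this was not tested. Stab2, a scavenger receptor, had 6.39, 4.68, 8.13 and 5.45.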
